A study of Mus musculus with 18 samples.

Results

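Primary mouse hepatocytes without added cytokine were compared before and after they were moved to starvation medium: 1 control array taken at -5 h was set against the control arrays of 0 h and 4 h. These are 3 of the 18 arrays of the series, chosen by the stimulus and time in their labels. All cells came from livers of male C57BL/6N mice aged 8 to 12 weeks, from 1 animal or a pool of up to 3 for an experiment, and were cultured sub-confluent on collagen I. After 4 h of attachment in medium with serum, insulin and dexamethasone, they spent 24 h in serum-free medium with 100 nM dexamethasone and without insulin. They then spent 4 h in starvation medium without dexamethasone, serum or insulin before 0 h. By these hours the -5 h control still had dexamethasone, a synthetic glucocorticoid, and the 0 h and 4 h controls had been without it for 4 h and 8 h. That placement is read from the protocol, since no label states the medium of each array. Loss of dexamethasone, the change of medium and the hours in culture coincide in these arrays and cannot be told apart. The other arrays used here are controls at 8, 12 and 24 h, 4 arrays with 40 ng/ml IL-6 from 0 h (1 to 4 h), and 8 arrays with the same IL-6 and 40 ng/ml HGF added at 4 h (5 to 24 h). All of them followed the same starvation.

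Glucocorticoids cross the cell membrane and bind the glucocorticoid receptor, encoded by Nr3c1, which then enters the nucleus and binds response elements near its target genes. In the liver these targets include feedback genes such as Fkbp5, and enzymes that make glucose and break down amino acids, such as Pck1 and Tat. Hepatocyte culture media usually hold a glucocorticoid because it helps the cells keep their liver-specific genes, many of which decline in culture.

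The 3 promoters below are shown because their genes stand for the groups described next: Pck1 for glucose production, Ifit1 for the interferon response, and Cyp1a1 for the gene with the largest difference in level. Each is the 250 bases before the RefSeq start on build GRCm38.p6, plus strand. Pck1 lies at chr2:173152823-173153072, Cyp1a1 at chr9:57697363-57697612 and Ifit1 at chr19:34640639-34640888.
Pck1: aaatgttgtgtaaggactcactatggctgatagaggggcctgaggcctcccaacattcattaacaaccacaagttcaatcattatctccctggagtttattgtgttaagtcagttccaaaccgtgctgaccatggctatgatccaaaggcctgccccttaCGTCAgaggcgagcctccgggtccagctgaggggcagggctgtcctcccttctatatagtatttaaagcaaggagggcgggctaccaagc
Cyp1a1: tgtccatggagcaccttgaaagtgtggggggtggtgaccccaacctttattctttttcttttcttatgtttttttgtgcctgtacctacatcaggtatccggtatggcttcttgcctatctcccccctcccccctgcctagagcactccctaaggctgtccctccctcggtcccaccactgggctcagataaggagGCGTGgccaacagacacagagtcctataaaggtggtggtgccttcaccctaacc
Ifit1: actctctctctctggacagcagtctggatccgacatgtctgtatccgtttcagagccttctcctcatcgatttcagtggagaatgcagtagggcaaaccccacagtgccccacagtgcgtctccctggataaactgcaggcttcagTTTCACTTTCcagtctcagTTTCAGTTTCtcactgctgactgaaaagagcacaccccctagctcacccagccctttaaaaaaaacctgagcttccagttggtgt
Capitals mark letter matches. In Pck1 they mark TGACG, the core of the cyclic AMP response element, on the minus strand from -90 to -86 counted from the start. In Cyp1a1 they mark GCGTG, the core of the element bound by the aryl hydrocarbon receptor, on the plus strand from -54 to -50. In Ifit1 they mark an interferon-stimulated element (GAAA, any 2 bases, GAAA), present as 2 copies on the minus strand at -104 to -95 and at -85 to -76. Searched on both strands, TGACG stood in 17.8%, GCGTG in 28.2% and the interferon element in 2.98% of 32851 mouse promoters of this length. The interferon element stood in 9 of the 27 promoters listed for interferon response genes (33.3%). The full palindrome of the glucocorticoid response element (AGAACA, any 3 bases, TGTTCT) stood in 3 promoters (0.00913%), among them Sgk1, the match among the 27 glucocorticoid-induced genes with a listed promoter. These motifs and promoters were chosen from 12 letter patterns after matches had been seen, so the matches are descriptions only.

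The arrays gave 18193 named genes on a log2 scale, on which a difference of 1 is a doubling. The -5 h array correlated at 0.995 with the 0 h array and at 0.994 with the 4 h array across all 45101 probe sets, which are not independent replicates. From -5 h to 0 h 105 genes differed by 1 log2 or more, from -5 h to 4 h 127 did, and from 0 h to 4 h, within the starved controls, 67 did. Array medians lay between 5.47 and 5.57. The nuclear RNA Malat1 was at 11.04, 11.52 and 9.62 at -5, 0 and 4 h, and Neat1 at 9.92, 11.14 and 8.12, so the 0 h array was highest of these 3 in both. Albumin (Alb) was at 14.89, 14.86 and 14.87, near the top of the scale, which fits the hepatocyte label.

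A gene was counted as past the fold where the 0 h and the 4 h array both differed from the -5 h array by at least 1 log2 in the same direction. This held for 17 genes in the higher direction (0.0934% of genes) and for 12 in the lower (0.066%). The count has no test, and both differences share the -5 h array, so an unusual value there moves both. The test was limma on all 18 arrays in 5 cells, with the lone -5 h array assumed to vary like the other cells. It called 1 gene lower after starvation (0.0055%) and 0 higher (0%) at an adjusted p under 0.05, with 489 lower (2.69%) and 556 higher (3.06%) at an unadjusted p under 0.05, or 1045 in all (5.74%). By permutation alone 1 array against 2 cannot give a p below 1 in 3. In the text, values on 3 arrays are given in the order -5, 0 and 4 h.

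**Figure D1:**
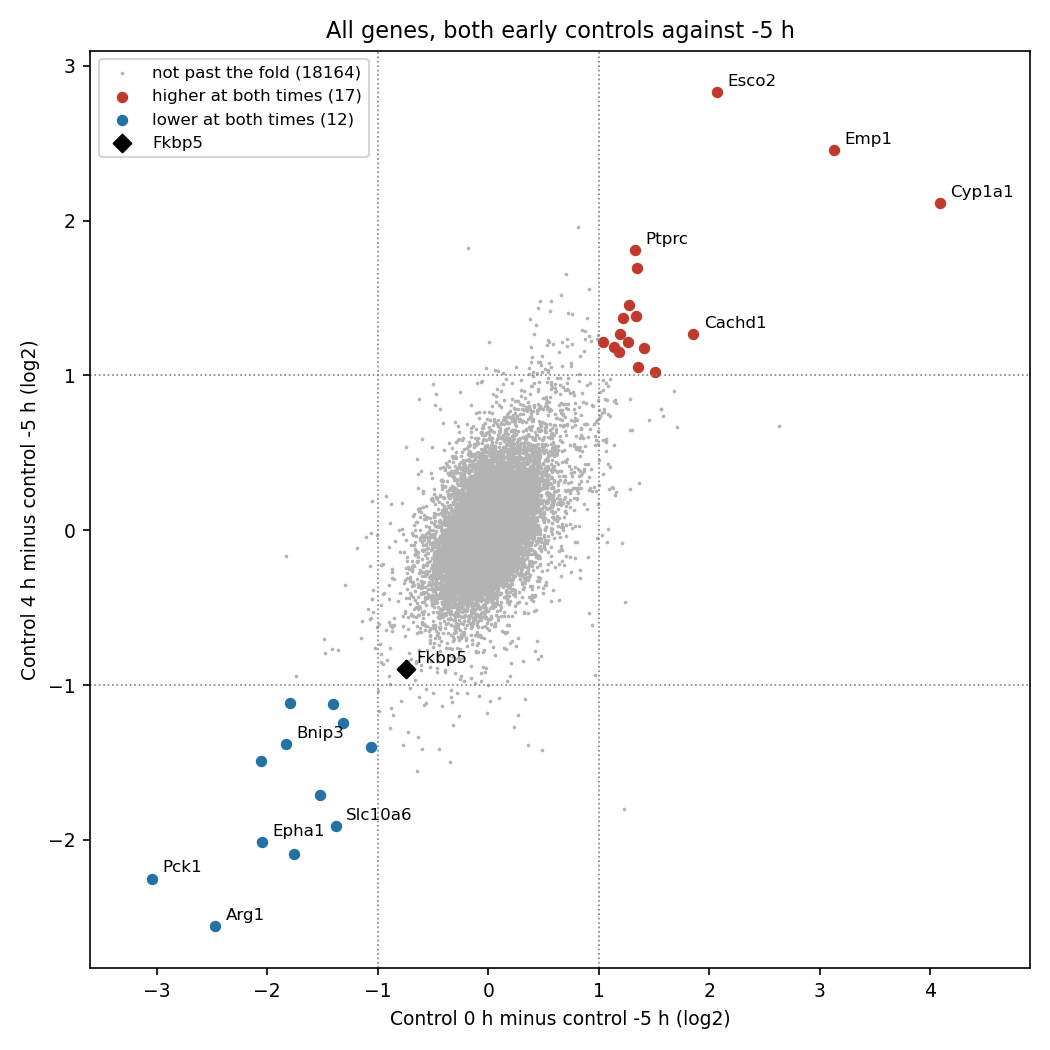
Each point is 1 gene: the horizontal axis gives the 0 h control minus the -5 h control and the vertical axis the 4 h control minus the -5 h control, both in log2. Red points (17) and blue points (12) lie past 1 log2 at both times, and the black diamond is Fkbp5, which limma called although it lies inside that limit. Both axes subtract the same -5 h array.

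Fkbp5, a co-chaperone that lowers the hormone affinity of the glucocorticoid receptor and is itself induced by it, was the gene that fell by limma. Its signal was 10.59 at -5 h, 9.85 at 0 h, 9.70 at 4 h, 9.71 at 8 h, 9.62 at 12 h and 9.66 at 24 h. The -5 h array stood alone at the top, with no later control above 9.85. The mean of 0 and 4 h differed by -0.82 ± 0.11 (SE) from -5 h, a 1.77-fold lower signal (limma adjusted p = 0.0313). All 17 later arrays, stimulated ones included, lay between 9.53 and 9.88, so the nearest was 0.716 log2 under the -5 h array. Its other 2 probe sets were also lower at both times, at 9.35, 8.61 and 8.26 and, near the floor, at 3.29, 3.11 and 3.01. The call was lost without the 0 h array (adjusted p = 0.0753) and without the 4 h array (0.147), and over all settings the adjusted p ran from 0.00835 to 0.706.

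Of 30 measured glucocorticoid-induced genes, 20 were lower and 1 was higher on both early arrays, where 33.8% of all genes were lower on both and 30.8% higher. Their median difference was -0.27, beside -0.01 for all genes. By at least 0.5 log2 at both times, 9 were lower and 0 higher, beside 0.665% and 1.37% of all genes. Past the fold were Pck1, in 2 of its 3 probe sets, and Rgs2, in 1 of its 4. The -5 h array was the highest of all 18 for 9 of the 30 (Fkbp5, Tsc22d3, Per1, Klf9, Zbtb16, Tat, G6pc, Nfkbia and Rgs2) and the lowest for 0. Over all genes -5 h was highest for 7.32% and lowest for 7.83%, a comparison added after the values had been seen. A high share was not particular to these genes. It was 71.4% for hepatocyte markers, 55.6% for plasma carrier proteins, 48.4% for gluconeogenesis and amino acid genes and 30% for liver transcription factors. Lower shares were seen for positive acute-phase genes (6.9%) and immediate early genes (0%).

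Tsc22d3 encodes GILZ, a glucocorticoid-induced anti-inflammatory leucine zipper protein. It was at 8.51 at -5 h and at 7.56, 7.64, 7.81, 7.85 and 7.77 on the later controls, so all of these lay below it and close together (difference -0.91 ± 0.30 SE, limma adjusted p = 0.575). Zbtb16, a zinc finger repressor and a sensitive glucocorticoid target, was at 9.15 and then between 8.20 and 8.52 (-0.75 ± 0.19 SE, adjusted p = 0.254). Per1, a clock gene with a glucocorticoid response, was at 7.97, 7.24 and 6.67 and did not return by 24 h, at 6.57 (-1.02 ± 0.32 SE, adjusted p = 0.507). Rgs2, a damper of G protein signalling, was at 7.01, 5.61 and 5.89 and between 5.09 and 5.44 later (-1.26 ± 0.32 SE, adjusted p = 0.254). Tsc22d3 and Zbtb16 thus had a step between -5 h and 0 h and near level values after it. Rgs2 also stepped down by 0 h but lay lower again from 8 h on, and Per1 went lower again at 4 h. None of the 4 passed the test.

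Klf9, a Krüppel-like factor induced by glucocorticoid, was lower in all 7 of its probe sets, with 11.52, 10.81 and 11.21 in the brightest (-0.51, adjusted p = 0.89). Tat, tyrosine aminotransferase, was at 9.51, 9.19 and 8.25 and reached 6.89 at 24 h, a slope rather than a step. Cebpb and Cebpd, transcription factors that join glucocorticoid and acute-phase responses, differed by -0.58 and -0.46. Tdo2 and G6pc, also of this list, were lower at both times and are described below. Some other members differed little on the mean of 0 and 4 h. Dusp1, a phosphatase that turns off MAP kinases, was at 12.27, 12.44 and 11.89, and Sgk1, a kinase of salt transport, at 11.03, 10.94 and 10.86. The metal-binding Mt1 was at 13.67, 14.07 and 13.41 in its brightest probe set and Mt2 at 13.09, 13.50 and 12.56, highest at 0 h in both. A second, dimmer probe set of Mt1 went down instead, at 6.96, 6.39 and 5.88. Without the 0 h array the differences were -0.25 for Mt1 and -0.52 for Mt2. Without the 4 h array they were 0.40 and 0.42. The receptor Nr3c1 was at 8.93, 8.97 and 9.01 in its brightest probe set (0.06 ± 0.11 SE). Of its 6 probe sets 5 were higher on the mean of 0 and 4 h, by up to 0.52. The other was at -0.08, so the size depends on the probe set. Of 15 measured genes for the receptor, its chaperones and steroid handling, 0 were past the fold, 8 were higher and 4 lower at both times.

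**Figure D2:**
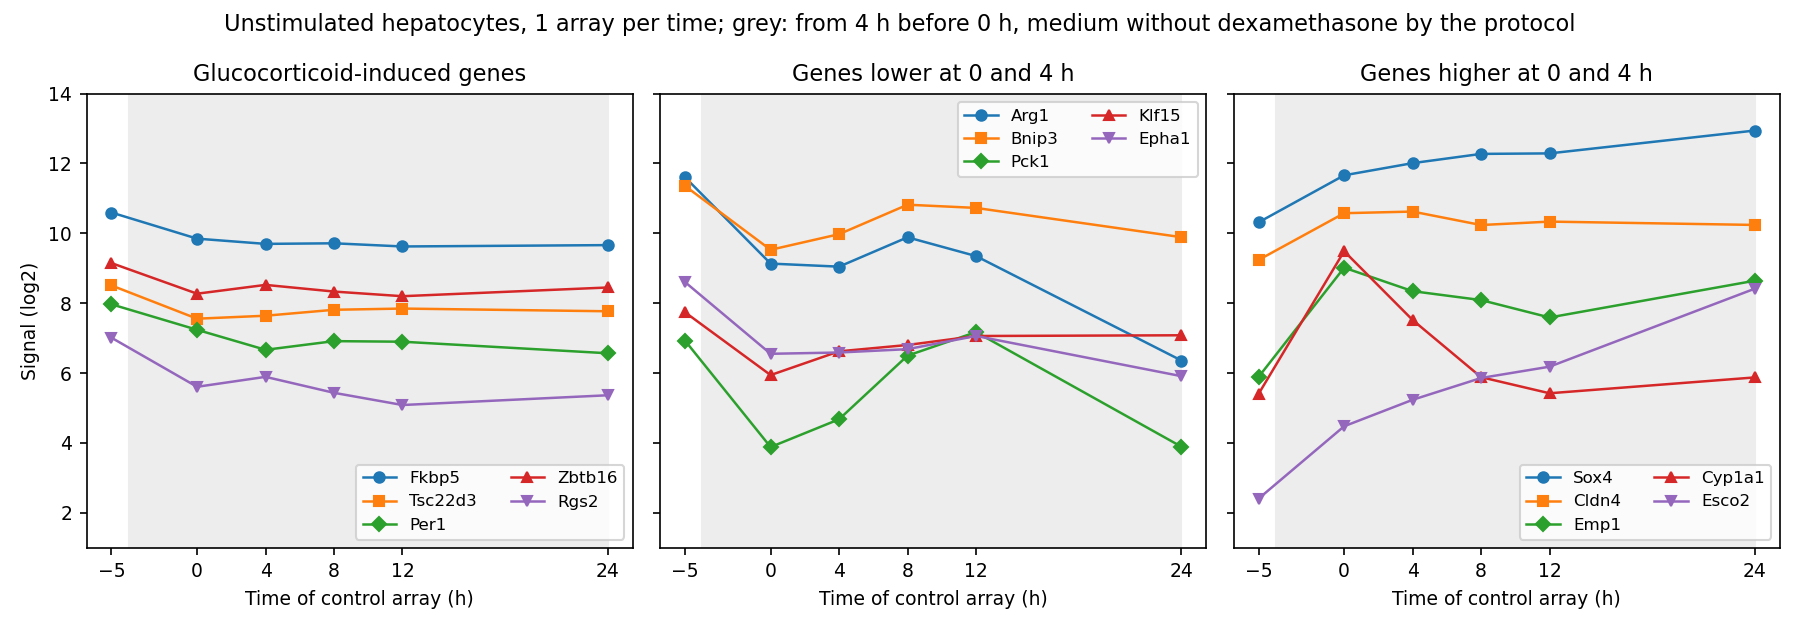
Log2 signal (vertical axis) of 15 genes on the 6 control arrays by hour (horizontal axis), 1 array a point, in 3 panels: glucocorticoid-induced genes, genes lower at 0 and 4 h, and genes higher at 0 and 4 h. Grey marks the hours without dexamethasone by the protocol. Fkbp5 steps from 10.59 to 9.85 and stays there, Pck1 is back at 6.50 by 8 h, and Cyp1a1 peaks at 9.49 at 0 h.

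Genes of glucose production and amino acid breakdown were lower as a group, with 26 of 31 measured members lower and 3 higher on both early arrays and a median difference of -0.42. Of all genes 33.8% were lower and 30.8% higher on both. Past the fold were Pck1 and Arg1, and 6 were lower by at least 0.5 at both times, beside 0.665% of all genes. The list shares Pck1, Tat, Tdo2 and G6pc with the glucocorticoid-induced genes. Pck1, phosphoenolpyruvate carboxykinase, which controls the entry into gluconeogenesis, was at 6.93 at -5 h, 3.88 at 0 h, 4.68 at 4 h, 6.50 at 8 h, 7.17 at 12 h and 3.89 at 24 h. It was low at 0 and 4 h, back near its -5 h level at 8 and 12 h, and low again at 24 h. The early mean was 6.26-fold lower (difference -2.65 ± 0.77 SE, limma adjusted p = 0.397). The 0 h signal is as low as values called near the floor here, so this fold may understate the difference. A second probe set gave 5.58, 4.10 and 4.31, and the third lay near the floor at 2.71, 2.68 and 2.65. On the arrays with IL-6 alone Pck1 lay between 3.87 and 4.28, and with IL-6 and HGF between 3.48 and 3.80. Unlike the later controls at 8 and 12 h, no stimulated array came near the -5 h level.

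Arg1, the arginase that releases urea, was at 11.60, 9.13 and 9.05, then 9.89, 9.35 and 6.36 at 8, 12 and 24 h (-2.51 ± 1.15 SE, adjusted p = 0.856). The 24 h value was lower still, so Arg1 had no flat level after 0 h. G6pc, glucose-6-phosphatase, was at 4.88, 4.16 and 4.04. Gpt2, an alanine aminotransferase, was at 11.91, 10.84 and 11.34 and above its -5 h level at 24 h, at 12.20. Tdo2, which opens tryptophan breakdown, was at 9.45, 8.45 and 8.84 and back at 9.42 by 8 h. The group thus held genes that were back near their -5 h level by 8 to 12 h and genes at their lowest at 24 h, and none of these passed the test.

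Genes that tune this metabolism were also among the lower ones. Klf15, a transcription factor of fasting amino acid use, was at 7.74, 5.94 and 6.62 and between 6.80 and 7.08 afterwards (-1.46, adjusted p = 0.175). Foxo1, the factor that insulin signalling keeps out of the nucleus, was at 9.60, 9.12 and 8.95. Sesn1, a sestrin known as a FoxO target, was at 7.69, 7.07 and 6.88 (-0.72 ± 0.16 SE, adjusted p = 0.175), and Ppp1r3b, which directs a phosphatase to glycogen, at 7.42, 6.71 and 6.50. Among 21 measured insulin and FoxO-linked genes 12 were lower and 3 higher at both times, with 0 past the fold. Among 30 liver transcription factors 20 were lower and 3 higher, with Klf15 past the fold. Of all genes 33.8% were lower and 30.8% higher at both times. Hnf4a, the master factor of hepatocyte identity, was at 11.38, 10.81 and 10.74.

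Other genes past the fold in the lower direction had varied roles. Epha1, an ephrin receptor, was at 8.60, 6.55 and 6.59 (-2.03 ± 0.44 SE, limma adjusted p = 0.175). All 3 of its probe sets were lower on the mean of 0 and 4 h, and 1 was past the fold. Nlrp12, a NOD-like receptor that restrains inflammatory signalling, was at 6.08, 4.56 and 4.37 (-1.62 ± 0.29 SE, adjusted p = 0.122). Bnip3, a mitochondrial protein of hypoxia and mitophagy, was at 11.36, 9.53 and 9.97 and nearer its -5 h level at 8 h, at 10.82 (-1.60 ± 0.33 SE, adjusted p = 0.163). Its list of 21 measured hypoxia and glycolysis genes had 13 lower and 2 higher at both times, beside 33.8% and 30.8% of all genes. Nrg4, a growth factor of the neuregulin family, was at 9.57, 7.80 and 7.48, and Slc10a6, a carrier of sulfated steroids, at 8.24, 6.86 and 6.33 and below 6.1 from 8 h on. Acnat2, which conjugates acyl groups to amino acids, was at 8.68, 6.62 and 7.19. Just inside the limit in this direction were Ifit1 and Klf15, with a smaller difference of -1.07 and -1.12, and just outside were Il22ra1 at -0.996 and Fam220a at -0.99.

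Interferon response genes were lower in most cases: 23 of 27 measured were lower and 3 higher on both early arrays, with a median difference of -0.40. Of all genes 33.8% were lower and 30.8% higher on both. By at least 0.5 at both times 5 were lower and 1 was higher, beside 0.665% and 1.37% of all genes. The -5 h array was the highest of all 18 for 15 of the 27 and the lowest for 1, beside 7.32% and 7.83% of all genes. Usp18, a protease that removes ISG15 and restrains the receptor, was at 11.45, 10.13 and 10.20 (-1.28 ± 0.32 SE, limma adjusted p = 0.25). Ifit1, which binds foreign RNA, was at 8.81, 7.75 and 7.41 (-1.23 ± 0.33 SE, adjusted p = 0.321). These 2 were past the fold, and both stayed below their -5 h level on every later control, Usp18 at no more than 10.85 and Ifit1 at no more than 7.65. Cmpk2, Oasl2 and Rsad2, further antiviral genes, differed by -1.09, -1.08 and -1.03. Rsad2 was at 10.49, 9.63 and 9.30 and went on to 8.25 at 24 h. Cxcl10, a chemokine of the same list, went the other way, at 7.03, 8.39 and 8.09 (1.21, adjusted p = 0.971), and was the member with its lowest value at -5 h. No interferon gene passed the test.

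**Figure D3:**
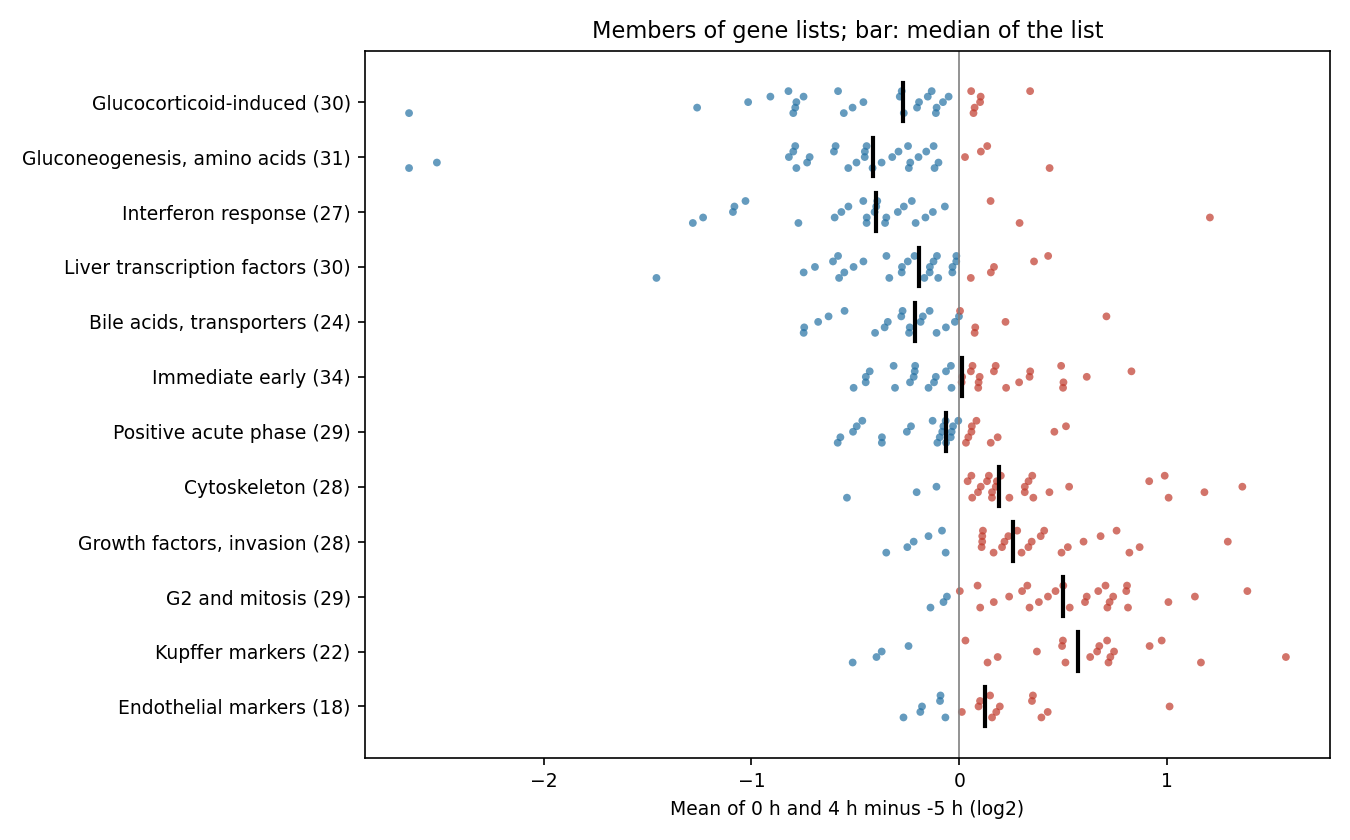
Each point is a measured member of a gene list, with its mean signal at 0 and 4 h minus its signal at -5 h in log2 on the horizontal axis; red lies above 0 and blue at or below it, and black bars mark list medians. The number of members stands in parentheses. Medians run from -0.42 for gluconeogenesis and amino acid genes to 0.57 for Kupffer cell markers.

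Cyp1a1, a P450 enzyme and the classic target of the aryl hydrocarbon receptor, showed the largest difference in the higher direction. It was at 5.40 at -5 h, 9.49 at 0 h, 7.52 at 4 h, 5.88 at 8 h, 5.42 at 12 h and 5.88 at 24 h. The signal was thus high at 0 h, lower at 4 h and near the -5 h level from 8 h. The early mean was 8.57-fold higher (3.10 ± 0.91 SE, limma adjusted p = 0.414). On the IL-6 arrays at 1, 2, 3 and 4 h it was at 9.22, 8.35, 7.25 and 6.36, and with IL-6 and HGF between 4.27 and 5.83, so the decline over the hours was seen in stimulated cells too. Other genes of this receptor, looked up after these values were seen, differed less. Cyp1a2 was at 9.22, 9.48 and 9.35, Cyp1b1 at 4.47, 4.34 and 4.54, Tiparp at 10.02, 10.14 and 9.46, and Ahrr near the floor at 3.58, 3.66 and 3.50. The receptor gene Ahr was at 9.54, 9.35 and 9.70, and Nqo1, a quinone reductase, at 6.79, 7.21 and 7.59. The list of P450 enzymes and other drug-handling genes had 23 of 39 members lower and 6 higher at both times. Over all genes 33.8% were lower and 30.8% higher. Cyp1a1 was the member of this list past the fold. Cyp2b10, a target of the receptor CAR, was at 12.26, 11.67 and 10.85 and at 7.10 by 24 h.

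Emp1, an epithelial membrane protein of spreading cells, was at 5.89, 9.02 and 8.34 and between 7.59 and 8.64 later (2.79 ± 0.58 SE, limma adjusted p = 0.163). All 17 later arrays were above its -5 h value, the nearest by 1.70 log2. Its other probe set was near flat, at 5.33, 5.67 and 5.54, so the size depends on the probe set. Sox4, a transcription factor of immature and regenerating epithelium, was at 10.31, 11.66 and 12.01 and reached 12.94 at 24 h (1.52, adjusted p = 0.175). Of its 8 probe sets 5 were past the fold. Cldn4, a tight junction claudin, was at 9.24, 10.58 and 10.62 and stayed between 10.24 and 10.33 (1.36 ± 0.32 SE, adjusted p = 0.216). Cachd1, a calcium channel-related membrane protein, was at 8.33, 10.18 and 9.59, past the fold in 1 of its 2 probe sets. Adam8, a membrane protease, was at 7.00, 8.51 and 8.03, and lay just inside the limit in the higher direction with 1.02 at 4 h, beside Racgap1 with 1.04; Cd52 and Fgf13 lay just outside with 0.99 and 0.98.

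Cell shape genes were higher in most cases: 22 of 28 measured cytoskeleton and dedifferentiation genes were higher and 3 lower at both times, with a median of 0.19. Of all genes 30.8% were higher and 33.8% lower at both times. By at least 0.5 at both times 5 were higher and 0 lower, beside 1.37% and 0.665% of all genes. Vim, the filament vimentin of mesenchymal cells and of hepatocytes in culture, was at 11.42, 12.50 and 12.35 and at 13.47 by 24 h (1.01 ± 0.33 SE, adjusted p = 0.564). Lgals3, a galectin, was at 11.38, 12.12 and 12.46, and the tubulin Tuba1a at 9.80, 10.50 and 11.46. Each went on above these levels to 24 h. Enah, an actin regulator, was past the fold in 1 of its 6 probe sets, at 5.38, 6.65 and 6.60. In the list of growth factors, their receptors and invasion genes 16 of 28 lay higher and 3 lower, with Ankrd1, a target of YAP, at 8.62, 10.30 and 9.51 but under the limit at 4 h. Vcam1, a leukocyte adhesion molecule, was at 7.69, 8.96 and 9.14 in its brightest probe set, while its other 2 were at 8.20, 8.38 and 8.17 and at 7.93, 8.43 and 8.20.

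Genes of G2 and mitosis were higher at 0 and 4 h by less than at later hours: 21 of 29 were higher and 1 lower at both early times, with 10 higher by at least 0.5 and a median of 0.50. The list mean stood above -5 h by 0.30 at 0 h, 0.69 at 4 h, 1.36 at 8 h, 1.83 at 12 h and 3.69 at 24 h. The -5 h array was the lowest of all 18 for 19 of the 29, beside 7.83% of all genes. Esco2, which joins sister chromatids in S phase, was past the fold at 2.41, 4.48 and 5.24 and reached 8.42 at 24 h (2.45, adjusted p = 0.881). Birc5, the mitotic survivin, was at 4.74, 5.55 and 6.70, and Racgap1, needed for cytokinesis, at 5.22, 6.25 and 6.43. Birc5 went on upward at each later control, to 10.08 at 24 h. For Esco2 the -5 h value lies close to the lowest value of the scale (2.09), so the size of its difference is uncertain. Its other probe set was at 2.86, 2.93 and 3.29. Of 39 genes of G1, S phase and replication 25 were higher and 6 lower, with 3 higher by at least 0.5. Over all genes these shares were 30.8%, 33.8% and 1.37%.

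**Figure D4:**
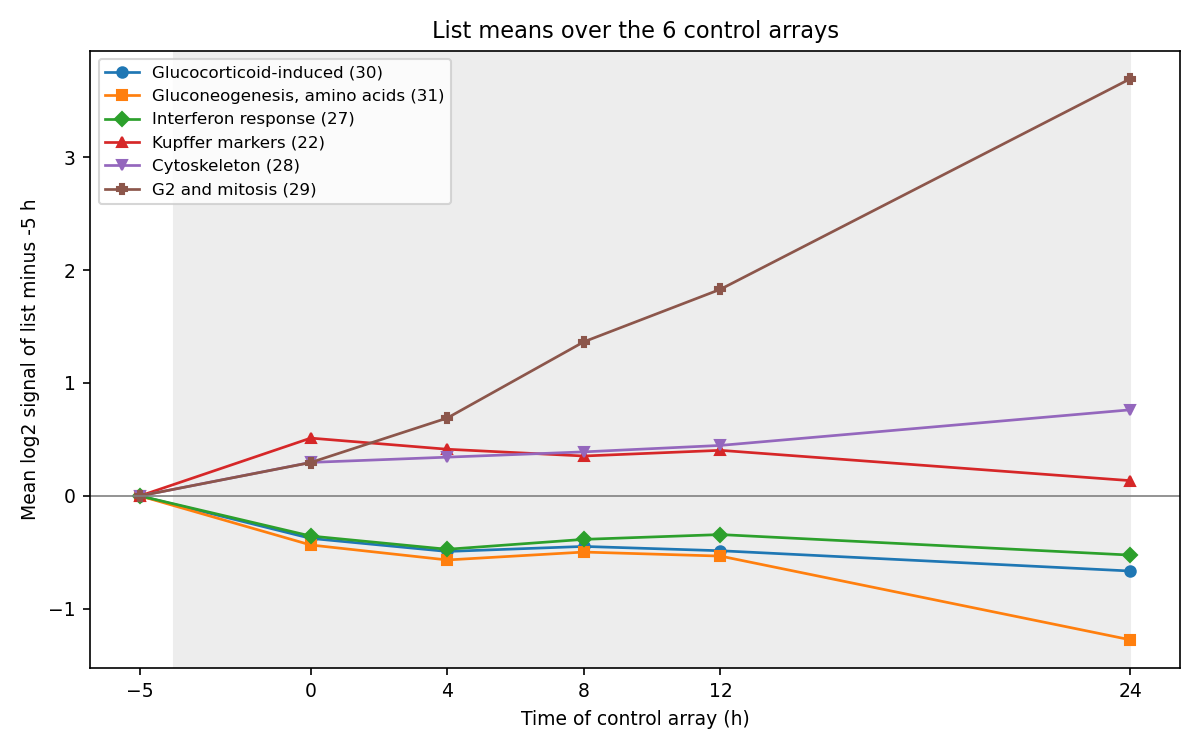
Mean log2 signal of 6 gene lists on each control array minus that at -5 h (vertical axis) by hour (horizontal axis), 1 array a time, with the number of genes in parentheses. The G2 and mitosis mean stands at 3.69 at 24 h, glucocorticoid-induced genes lie between -0.38 and -0.67 at all later hours, and Kupffer markers are at 0.51 at 0 h and 0.14 at 24 h.

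Markers of Kupffer cells, the macrophages of the liver, were higher in part. Of 22 measured, 16 were higher and 3 lower on both early arrays, 11 were higher by at least 0.5, and the median was 0.57. Of all genes 30.8% were higher and 33.8% lower on both, and 1.37% were higher by at least 0.5. The mean level over the list was 6.78 at -5 h, 7.19 to 7.29 on the early controls, 6.91 to 7.18 on the later controls and 6.83 to 6.93 on the 4 IL-6 arrays. Ptprc, the leukocyte surface phosphatase CD45, was at 3.68, 5.01 and 5.50 (1.57 ± 0.27 SE, limma adjusted p = 0.103), though its other probe set was flat at 3.42, 3.19 and 3.15. Adgre1, the macrophage antigen F4/80, was at 6.87, 8.01 and 8.06 and back at 7.11 at 24 h (1.16, adjusted p = 0.282). These 2 markers were past the fold. The scavenger receptor Marco was at 7.33, 8.63 and 7.98, and Cd5l, a secreted macrophage protein, at 8.47, 9.47 and 9.31. Other members of the list, picked after their values were seen, differed in direction: Clec4f, a lectin of Kupffer cells, was at 7.25, 7.18 and 6.58, and Cd163, a hemoglobin scavenger receptor, at 6.32, 6.68 and 4.94. Timd4 was near the floor at 3.79, 4.12 and 3.74, where a difference may not show. Clec4a3 and Slc15a3, which macrophages also express, were past the fold at 3.43, 4.65 and 4.80 and at 4.40, 5.81 and 5.58. The -5 h values of Ptprc and Clec4a3 also lie near the floor, so the sizes of their differences are uncertain.

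Of 14 hepatocyte markers 13 were lower at both times and 0 higher, with a median of -0.28 and a mean level of 12.28 at -5 h, 11.87 to 12.06 on the early controls and 10.66 to 11.79 on the later controls. Cyp2e1, an ethanol-oxidizing P450, was at 12.92, 12.77 and 12.30 and at 8.67 by 24 h. In RNA from a whole dish, fewer cells of a type and less RNA per cell cannot be told apart. The part of Kupffer cells in the interferon, inflammatory and adhesion genes above was not tested. Of 18 endothelial markers 9 were higher and 1 lower, with Kdr, the VEGF receptor, at 6.07, 7.14 and 7.03, while Stab2 was at 7.40, 7.46 and 6.81. Of 18 stellate cell markers 4 were higher and 10 lower, with 0 past the fold, and of 9 cholangiocyte markers 7 were higher and 1 lower. Over all genes 30.8% were higher and 33.8% lower at both times.

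Other lists had few or no members past the fold. Over all genes 30.8% were higher and 33.8% lower at both times. Of 29 positive acute-phase genes 7 were higher and 9 lower, with a median of -0.07 and 0 by at least 0.5 at both times. Saa1, a serum amyloid, was at 14.02, 14.06 and 14.10, and Socs3, the feedback inhibitor of IL-6 signalling, at 7.56, 7.60 and 7.12. Of 34 immediate early genes 12 were higher (35.3%) and 13 lower (38.2%), near the shares of all genes, with a median of 0.01. Of 33 inflammatory genes 20 were higher and 6 lower, with Vcam1 past the fold. Cholesterol and fatty acid synthesis had 9 of 26 higher (34.6%) and 6 lower (23.1%), with 0 past the fold. Bile acid synthesis and transport had 16 of 24 lower and 2 higher, with a median of -0.21 and 0 past the fold. For 10 of the 24 the -5 h array was the highest of all 18, beside 7.32% of all genes. Of 19 clock genes 3 were higher and 10 lower. Arntl, the partner of CLOCK, was at 8.92, 8.73 and 8.73 and Dbp, a clock output, at 4.64, 4.56 and 4.67, so that both were nearly level over these 9 hours. Dbp lay below the array medians, where a difference may not show. Other clock genes were not level: the lowest and highest differences of the list were -1.02 for Per1 and 0.49 for Nr1d1. Among stress genes Hmox1, heme oxygenase, was at 9.50, 11.06 and 10.28, and Herpud1, of the unfolded protein response, at 11.62, 10.46 and 10.92; both were under 1 log2 at 4 h.

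The 24 h control shares its cell with the 8 h and 12 h controls, and 416 genes differed by 1 log2 or more between 12 h and 24 h, which enters the spread of the fit. Without the 24 h arrays the differences stay the same and limma called 8 genes lower (0.044%) and 22 higher (0.121%). Of these 30, 12 were past the fold: Pck1, Epha1, Nlrp12 and Bnip3 fell and Emp1, Esco2, Ptprc, Cachd1, Sox4, Cldn4, Enah and Adgre1 rose in that fit. Pck1 had an adjusted p of 0.000777 there and Fkbp5 of 0.00835. The macrophage-expressed genes Fcer1g, Cd52, Tlr1 and Slc11a1, picked after the calls were seen, were also among the 22, as were Lyz1, Vim and Lgals3. This was 1 of the alternatives listed for the test, and Fkbp5 alone was also called with all 18 arrays.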

How the data were processed

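Biotin-labelled RNA from 18 cultures was read on Affymetrix arrays, 1 array for each condition and time. The deposited values are on a log2 scale, read from their range (2.09 to 15.05); the submitters' summarization and normalization were not given in the sources used here. Nothing says whether arrays came from separate animals, so p-values reflect the spread among arrays, which may be technical. Of 45101 probe sets, 34958 had 1 gene symbol, 932 several and 9211 none in the platform annotation. For each of 18193 genes the probe set brightest on average over all arrays was used; no filter on dim genes was set. Early minus -5 h was fitted with limma 3.58.1 (R 4.3.3) in 5 cells (-5 h; 0 and 4 h; later controls; IL-6; IL-6 plus HGF; 13 residual degrees of freedom), with Benjamini-Hochberg adjustment over all genes at 0.05. The spread includes change over time. The number of arrays limits precision. The script was tested on simulated data with the spread of this fit. There 39 genes without a set change passed the fold at both times, beside 29 genes in the real data. The simulated spread includes the change over later hours, so these counts are not a like comparison and no conclusion is drawn from them. In the same simulated data limma called 2 genes without a set change.

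The comparison, members and 32 gene lists (692 of 745 symbols measured) were chosen with earlier results of these data known. Named genes were the 12 largest differences each way past the fold, up to 4 members of a list past the fold or test (otherwise its 2 largest), and a fixed set around Fkbp5; clone names were left out. Further genes were named after their values were seen: aryl hydrocarbon receptor genes, -5 h extremes and examples of list members, as were the promoters.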

Additional observations from a re-analysis of the deposited data

How the results depend on the processing

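No paired analysis was possible because the replicate numbers follow accession order and the -5 h condition has 1 array. Fkbp5 kept its direction in all settings run (-0.66 to -0.90). Its call held with quantile normalization, without dim genes, without the 24 h arrays and with an intensity trend. It was lost, leaving 0 lower calls overall and among list members, with each array centred (adjusted p = 0.108), with the mean of probe sets (0.0783), with the 6 controls alone in 3 cells (0.706), against all 5 later controls (0.607), without either early array (0 in both cases), and with a minimum difference of 1 log2. Without the 24 h arrays limma called 22 genes higher and 8 lower, 7 and 3 of them list members. At a fold of 0.5 log2 the counts were 249 higher and 121 lower (list members 45 and 33), and at 2 log2 3 and 3 (1 and 2). With only 1 early array, 69 to 77 genes were higher and 36 to 50 lower (list members 19 to 20 and 17 to 22). Of 902 values of 83 named genes under an alternative, 870 kept direction and side of the threshold, 7 lost and 13 gained a call, and 12 turned sign. All 7 losses were of Fkbp5. The other named genes had no call in the main fit to lose, so the 870 say little about how firm a call is. Without the 0 h or the 4 h array, respectively, the difference was -0.39 or 0.16 for Dusp1, -1.10 or 0.012 for Fabp1, -1.42 or 0.48 for Malat1, -0.52 or 0.42 for Mt2, -0.45 or 0.036 for Socs3, -0.25 or 0.40 for Mt1 and 0.19 or -1.05 for Serpina7. Mt1 was at -0.38 with the mean of probe sets and -0.70 against all 5 later controls. Serpina7 was at 0.26 against all 5 later controls, where Saa4 was at 0.042 and Steap4 at 0.0087. The cause was not tested. Of 46 named genes with several probe sets, 34 had the same direction in all. No scaling moved the median of all genes by 0.1 log2.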
